A study of Mus musculus with 5 samples.

Results

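The data describe the resting transcriptome of control TER119-positive cells of the mouse fetal liver, taken from the 3 control libraries among the 5 libraries of the study. The study bred C57BL/6 mice in which Cre recombinase, expressed from the Vav1 promoter that is active across blood-forming cells, removes floxed alleles of Csnk2b. This gene encodes the regulatory subunit of the kinase CK2. The controls used here were Csnk2b+/+ Vav+/Cre embryos at 14.5 days post conception, untreated, so they carried the same Cre transgene but unfloxed Csnk2b. The other 2 libraries of the study (Csnk2bfl/fl Vav+/Cre) enter no value below. Livers were dispersed, labelled with FITC-coupled anti-TER119 and sorted by flow cytometry with a scatter gate against dead cells and debris, and polyadenylated RNA was sequenced on an Ion Proton. The labels name each library as an embryo and do not say whether cells of several embryos were pooled, so the spread between the 3 libraries may be biological, technical or both.

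At this stage of mouse development most red cells are made in the fetal liver. Committed progenitors divide a few more times as erythroblasts while they fill with haemoglobin, build a spectrin-based membrane skeleton, take up iron through the transferrin receptor, and finally condense and expel the nucleus. TER119 is a surface antigen that appears on the dividing erythroblast and stays on the mature red cell. GATA1, TAL1 and KLF1 are the transcription factors best known for driving this programme, erythropoietin is its main survival hormone, and 5-aminolevulinate synthase (ALAS2) makes the first committed step of heme synthesis. The liver at this age also holds hepatoblasts, macrophages at the centre of erythroblast islands, granulocytic and megakaryocytic cells, endothelium and stromal cells.

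Each library held 13543392 to 15366021 counts over genes, so 1 CPM, the unit of counts scaled to library size, stood for 13.5 to 15.4 counts, and values well under 1 CPM rest on few reads. Of 39179 genes listed, 18446 to 18815 had at least 1 count in a library, and 11682 genes (29.8%) reached 1 CPM in all 3 libraries. The libraries resembled each other closely: Pearson's r of log2(CPM + 1) was 0.996 to 0.997 for the 3 pairs over those 11682 genes. Genes at lower levels were left out of r, which is a description across genes within these libraries. No copied library was seen, since the chi-square per degree of freedom between libraries was 4.30 to 6.35, well above the value of 1 that counting error alone gives. It was taken over the 13878 to 14086 genes with at least 10 counts in the pair. With 1 group there was no contrast to test, and even an exact sign-flip test over 3 libraries cannot go below a two-sided p of 0.25, so the values are given with their spread (SD, n = 3) and no p-value.

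The libraries matched their label. Hbb-bs, the adult beta-globin gene (ENSMUSG00000052305, chr7:103826534-103828096, minus strand, GRCm38), had 15640 CPM in control replicate 1, 18450.5 in replicate 2 and 19142 in replicate 3. Hba-a1, an adult alpha-globin gene (ENSMUSG00000069919, chr11:32283511-32284465, plus strand), stood at 11731.9, 15758.1 and 9882.9 CPM. Slc4a1, which encodes the anion exchanger of the red cell membrane (ENSMUSG00000006574, chr11:102348824-102366203, minus strand), stood at 16857.5, 18815.8 and 18694.1 CPM. These 3 genes took the top 3 places by CPM in the mean of the controls. Alas2 (ENSMUSG00000025270, chrX:150547375-150570638, plus strand) stood at 2668.6, 2859.8 and 2885.5 CPM. Gata1 (ENSMUSG00000031162, chrX:7959260-7978071, minus strand) stood at 470.2, 508.9 and 467.2 CPM, or 6747 to 7225 counts. Alas2 and Gata1 varied little, with coefficients of variation (CV, the SD over the mean) of 4.22% and 4.82%, whereas Hba-a1 had a CV of 24.1% and was highest in replicate 2.

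Erythroid genes led the transcriptome, although most counts lay outside the erythroid lists. The 10 most abundant genes held 9.52% ± 0.677 of the counts, and 638 to 688 genes held 50%. Slc4a1 (18122 CPM ± 1097), Hbb-bs (17744 CPM ± 1855), Hba-a1 (12458 CPM ± 3004) and Hbb-bt (8787 CPM ± 907) led, followed by Slc25a37, the mitochondrial iron importer (8008 CPM ± 82), and Mki67, a nuclear protein of dividing cells (7211 CPM ± 326). Then came Hba-a2 at 6545 CPM, the spectrin gene Sptb at 6132, the translation elongation factor Eef1a1 at 6092 and the carbonic anhydrase Car2 at 4068. Of the 30 most abundant genes, 15 belonged to 5 erythroid lists (globins, erythroid transcription factors, heme synthesis, iron and heme transport, membrane and skeleton), which together name 103 genes in the table and held 13.8%, 15.3% and 14.2% of the counts in replicates 1, 2 and 3. The other 15 included Mki67, the elongation factors Eef1a1 and Eef2, Tmcc2, the chaperone Hsp90ab1, Pabpc1, the surface glycoprotein Cd24a, Actb, Arrb1, the ribosomal stalk gene Rplp0, the antioxidant enzymes Prdx2 and Gpx1, Tubb5 and Xpo7. The last gene of the 30, Xpo7, which encodes an exportin known for its part in nuclear maturation of erythroblasts, stood at 2109 CPM ± 82.

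**Figure D1:**
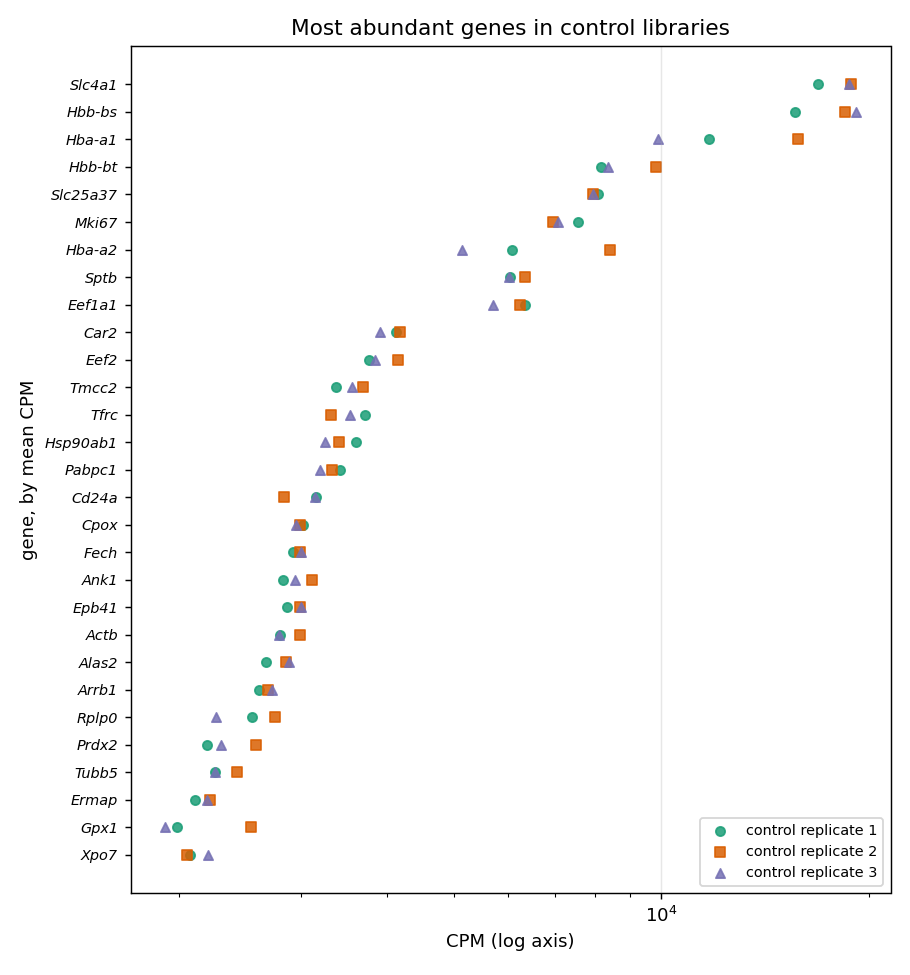
CPM (log axis) of 29 of the 30 genes with the highest mean over the 3 control libraries, 1 marker per library. Slc4a1 lies at 16857.5 CPM or more and Hbb-bs at 15640 CPM or more in all 3 libraries, and Hba-a1, Hba-a2 and Gpx1 are spread more widely than their neighbours.

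A share of reads grows with transcript length, so levels of different genes were compared per kb of exon. On that scale the 4 adult globin genes came first, with Hbb-bs at 23104 CPM per kb ± 2415, Hba-a1 at 15342 ± 3700, Hbb-bt at 12500 ± 1290 and Hba-a2 at 9813 ± 2532. Slc4a1, the first gene by CPM, took the fifth place per kb at 3705 ± 224. Eef1a1 (2443 CPM per kb), Rplp1 (1982), Car2 (1679), Rplp0 (1520), Gpx1 (1490), Slc25a37 (1330), Cd24a (1182), Eef2 (1180), Alas2 (1167) and Hsp90ab1 (1142) completed the 15 highest genes. The lowest globin value in any library, 7706 CPM per kb for Hba-a2 in replicate 3, lay above the 3847 CPM per kb of Slc4a1 in its highest library. In the lists that follow, places are by share of reads (CPM) unless a value per kb is given.

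The erythroid lists stood far above the background of all genes. Of their 103 genes, 100 (97.1%) reached 1 CPM in all 3 libraries, against 29.8% of all genes listed, and 84 reached 100 CPM, which 5.46% of all genes did. All genes listed include many non-coding genes and pseudogenes. Of the 21303 protein coding genes alone, 10422 reached 1 CPM in all 3 libraries. Their median was 358 CPM, whereas the median of the 11682 genes at 1 CPM or more was 25.3 CPM. Together the 103 genes held 13.8%, 15.3% and 14.2% of the counts in replicates 1, 2 and 3. The 3 genes that did not reach 1 CPM were the embryonic-type globin gene Hbb-bh2 (0.25 CPM), the heme transporter relative Flvcr2 (0.2 CPM) and the adhesion molecule Bcam (0.345 CPM).

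**Figure D2:**
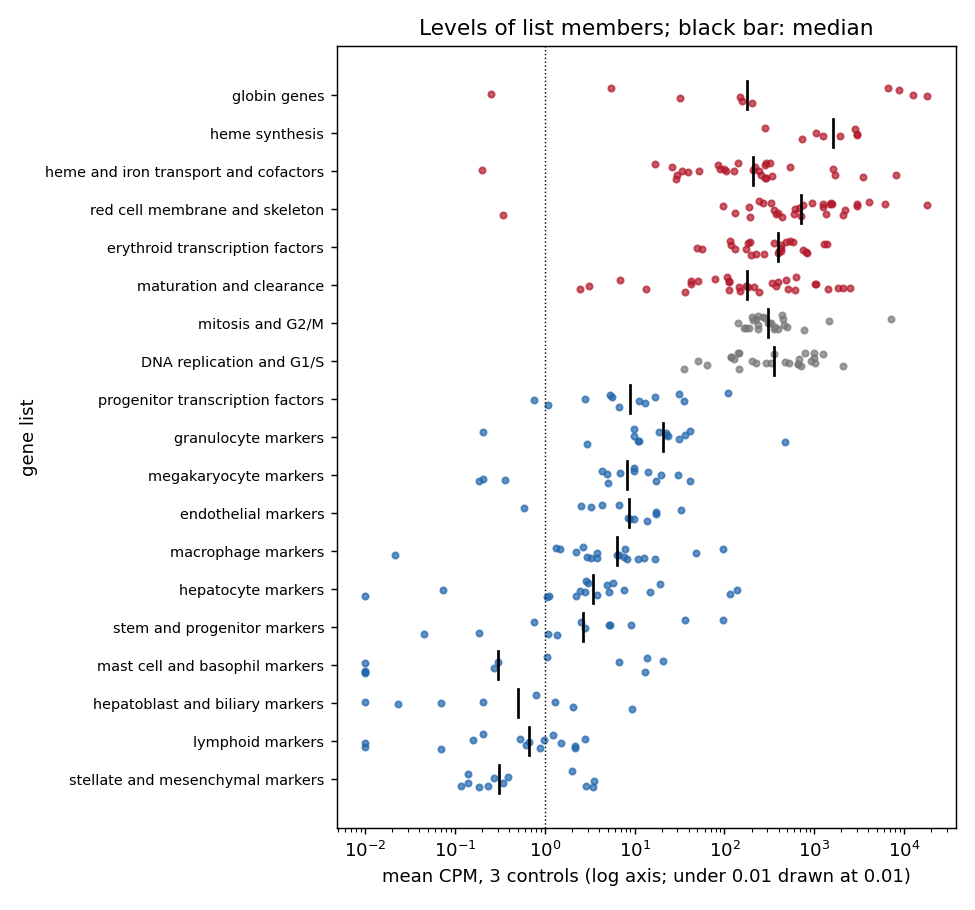
Mean CPM over the 3 control libraries (log axis) of each member of 19 gene lists, 1 point per gene, with the median of each list as a black bar and a dotted line at 1 CPM; erythroid and maturation lists are red, cell cycle lists grey, and lists of progenitor factors and other cell types blue. The erythroid lists sit mostly above 100 CPM and the lists of other cell types mostly below 20 CPM.

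Globin genes held 4.21%, 5.31% and 4.30% of the counts in replicates 1, 2 and 3, with the highest share in replicate 2. These are shares of the deposited counts and may differ from shares of the RNA, as the adult genes are nearly identical in pairs. The adult genes made nearly all of it. Hbb-y, an embryonic beta-type gene of the primitive red cell lineage, stood at 169.2, 268.6 and 163.4 CPM, and Hbb-bh1, another such gene, at 148.8, 167.8 and 133.7 CPM. Hba-x, the embryonic alpha-type gene, stood at 130.2, 173.5 and 164 CPM. The embryonic beta-type genes Hbb-y and Hbb-bh1 together made 1.30% ± 0.226 of beta-type counts, and Hba-x made 0.839% ± 0.208 of alpha-type counts. Hbb-bh2 and the theta-type genes were left out of these shares. The theta-type genes were lower still, Hbq1b at 32 CPM ± 5.01 and Hbq1a at 5.47 CPM ± 1.80. For the adult genes, 25.5% (Hba-a2) to 45.2% (Hbb-bt) of 100-base windows of the longest transcript occurred in no other gene's transcripts. For Hbb-y it was 100%. How reads shared between genes were counted is not given, so the embryonic shares are uncertain. Among the 8 globin genes at 10 CPM or more, 7 were highest in replicate 2 and 0 in replicate 1. Of all 8013 genes at that level, 42.3% were highest in replicate 1, 22.7% in replicate 2 and 35.0% in replicate 3.

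The balance of alpha-type to beta-type counts differed between the libraries. Alpha-type genes (Hba-a1, Hba-a2 and Hba-x) summed to 17939, 24350 and 15187 CPM in replicates 1, 2 and 3. Beta-type genes (Hbb-bs, Hbb-bt, Hbb-y and Hbb-bh1) summed to 24126, 28715 and 27806 CPM. The ratio of alpha to beta was thus 0.744, 0.848 and 0.546, so replicate 3 had the fewest alpha counts and a high beta sum. Replicate 3 also had lower values for short transcripts in general, which is described with the spread between libraries below. The part of transcript length, or of sequence shared between genes, in the globin balance was not tested.

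The adult globins come in nearly identical pairs, which bears on how reads are assigned to each member. In GENCODE M21 the coding sequences of Hbb-bs and Hbb-bt are 444 bases long and differ at 1 base (99.8% identical), and those of Hba-a1 and Hba-a2 are 429 bases long and also differ at 1 base. The stretches around those bases are shown because they hold the only coding difference in each pair. They run 5′ to 3′ on the coding strand, from base 397 to 437 of the beta-globin coding sequences and from base 361 to 401 of the alpha-globin ones, with the differing base in capitals.
Hbb-bs: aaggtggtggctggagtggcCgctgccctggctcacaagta
Hbb-bt: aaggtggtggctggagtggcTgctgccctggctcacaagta
Hba-a1: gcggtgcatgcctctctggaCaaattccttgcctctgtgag
Hba-a2: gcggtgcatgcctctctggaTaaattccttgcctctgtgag

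A read that covers no base that differs cannot be given to 1 gene of the pair. Of the 100-base windows along the longest transcript, 37.4% were found in no other gene's transcripts for Hbb-bs, 45.2% for Hbb-bt, 43.5% for Hba-a1 and 25.5% for Hba-a2. Per kb of exon, Hbb-bs exceeded Hbb-bt 1.75, 1.72 and 2.09 times in replicates 1, 2 and 3. With the number of unique windows in place of exon length the mean ratio was 2.79 ± 0.313, so Hbb-bs led on each scale tried. Hba-a1 exceeded Hba-a2 1.59, 1.54 and 1.58 times per kb of exon, but the ratio was 0.848 ± 0.0142 per unique window. The order of the alpha pair therefore depends on the length measure, and the sources used here do not give how reads that map to several places were counted. The globin share of the counts, the ratio of alpha to beta and the place of Slc4a1 above Hbb-bs by CPM are uncertain for the same reason. For Slc4a1, 100% of windows were unique.

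Upstream sequence of the leading globin genes and of Alas2 is shown since these genes are among the most abundant per kb and mark the cell type. The windows hold the 250 bases before the RefSeq transcript start (GRCm38.p6), 5′ to 3′ on the gene's strand, for Hbb-bs at chr7:103827929-103828178 (minus), Hbb-bt at chr7:103813924-103814173 (minus), Hba-a1 at chr11:32283422-32283671 (plus) and Alas2 at chrX:150547167-150547416 (plus). Some GENCODE transcripts of these genes start further upstream, inside these windows. Capitals mark matches on either strand to GATA forms (AGATAA or, in its other forms, TGATAA, then AGATAG as well as TGATAG), to a CACC-type form (CCNCNCCC) and to TATA forms (TATAAA or TATAAG); overlapping matches run together.
Hbb-bs: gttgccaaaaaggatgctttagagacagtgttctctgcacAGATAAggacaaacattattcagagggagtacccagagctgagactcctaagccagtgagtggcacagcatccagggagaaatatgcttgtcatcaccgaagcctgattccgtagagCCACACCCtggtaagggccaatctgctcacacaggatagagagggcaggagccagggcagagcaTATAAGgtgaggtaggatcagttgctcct
Hbb-bt: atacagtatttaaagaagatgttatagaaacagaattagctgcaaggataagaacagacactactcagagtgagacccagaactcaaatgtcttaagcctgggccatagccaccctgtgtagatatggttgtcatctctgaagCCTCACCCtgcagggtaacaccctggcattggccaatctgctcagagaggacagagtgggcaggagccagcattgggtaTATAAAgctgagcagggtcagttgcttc
Hba-a1: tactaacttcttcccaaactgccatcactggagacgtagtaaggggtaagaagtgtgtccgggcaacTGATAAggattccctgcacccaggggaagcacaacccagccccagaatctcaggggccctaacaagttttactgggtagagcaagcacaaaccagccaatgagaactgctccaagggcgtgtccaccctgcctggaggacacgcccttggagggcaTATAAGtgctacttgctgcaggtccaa
Alas2: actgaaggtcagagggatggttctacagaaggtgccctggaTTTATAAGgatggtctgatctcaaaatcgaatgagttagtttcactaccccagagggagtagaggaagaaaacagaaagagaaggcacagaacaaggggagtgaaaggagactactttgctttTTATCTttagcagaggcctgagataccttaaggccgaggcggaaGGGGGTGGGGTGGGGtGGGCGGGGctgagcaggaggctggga

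Hbb-bs had 1 match of each kind and Hbb-bt 1 CACC-type and 1 TATA match but no GATA match. Hba-a1 had 1 GATA and 1 TATA match, and its window shared a run of 297 of 300 bases (the 250 shown with the 50 that follow) with that of Hba-a2. Alas2 had 1 GATA match, 4 CACC-type matches and 2 TATA matches. Matches to GATA and CACC-type forms were common. A GATA form lay in 26.5% of the 32851 windows of the RefSeq promoter table. It lay in 16.9% of the windows of genes at 1 CPM or more. A CACC-type form lay in 45.9% and 63.4% of the same windows. A TATA form was rarer, in 17.0% and 8.67% of them, but lay in 5 of 9 globin windows. The other erythroid lists had a TATA form in 1 of 35 to 1 of 8 windows, and the granulocyte list had one in 7 of 14. GATA forms lay in 6 of 9 globin windows, 11 of 28 of the membrane list (39.3%), 3 of 8 of the heme synthesis list, 8 of 35 of the erythroid transcription factor list and 4 of 33 of the heme and iron transport list (12.1%). Lists of other cell types spanned as wide a range, from 0 of 9 endothelial windows to 7 of 10 of the mast cell and basophil list. A match describes letters only and says nothing of binding.

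All 8 enzymes of heme synthesis exceeded 100 CPM in every control. Cpox, which makes protoporphyrinogen, stood at 2992 CPM ± 33.9, and Fech, which inserts iron to make heme, at 2974 CPM ± 45.2. Alas2 stood at 2805 CPM ± 118, Urod at 1262 ± 53.1, Alad at 1049 ± 77.2 and Ppox at 731 ± 37.1. Uros was the lowest at 283 CPM ± 13, and its values of 270.4, 283.5 and 296.5 CPM did not overlap those of any other enzyme of the list. Per kb of exon Alas2 led with 1167 CPM per kb ± 49.3, against 561 ± 41.3 for Alad and 487 ± 20.5 for Urod. Cpox stood at 449 ± 5.1, Fech at 215 ± 3.26 and Uros at 79.3 ± 3.64. The size of these gaps depends on the length measure. Exons spanned 6661 bases for Cpox and 13838 for Fech, but their longest transcripts have 3097 and 6571 bases. For Alas2 these lengths were 2403 and 2037 bases. The median CV of the 8 genes was 4.41%.

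Iron import genes led the iron and heme transport list. Slc25a37 (mitoferrin), which brings iron into mitochondria, stood at 8102, 7952 and 7970 CPM, and Tfrc, the receptor that takes up transferrin-bound iron, at 3713, 3318 and 3537 CPM. The mitochondrial transporter Abcb10 followed at 1710 CPM ± 14.4 and the ferritin heavy chain Fth1 at 1596 ± 91.5. Slc25a39 (532 CPM), Slc25a38 (339), Tmem14c (324), the ferrireductase Steap3 (287) and the iron transporter Slc11a2 (242) lay lower, and the iron exporter Slc40a1 stood at 89.6 CPM ± 2.9. Heme export and breakdown genes were among the lowest of the 29, with Flvcr1 at 26.2 CPM ± 0.759, Hmox2 at 28.5 ± 1.16 and Hmox1 at 16.7 ± 1.33. In all, 28 of the 29 genes reached 10 CPM and 17 reached 100 CPM in every control.

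Membrane and skeleton genes reached high levels as a group, with 29 of 31 at 100 CPM or more and 13 at 1000 CPM or more in every control. After Slc4a1, Sptb (beta spectrin) stood at 6132 CPM ± 184, Car2 at 4068 ± 138, Ank1, the ankyrin that ties spectrin to the anion exchanger, at 2962 ± 143, Epb41, which joins spectrin to actin, at 2954 ± 75.5, and Ermap at 2173 ± 58.2. Blood group and transport genes included Kel (1553 CPM), the glucose transporter Slc2a1 (1486), Epb42 (1338), Rhd (931), Rhag (712) and the water channel Aqp1 (187). Per kb of exon Sptb stood at 505 ± 15.2 CPM per kb. Tpm3 at 95.2 CPM and Bcam at 0.345 CPM were the only members below 100 CPM in the mean.

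Erythroid transcription factors were expressed as a full set, all 25 above 10 CPM and 23 at 100 CPM or more in every control. E2f2, a cell cycle factor prominent in erythroblasts, stood at 1280, 1407 and 1433 CPM. Tal1, the GATA1 partner, stood at 1246, 1273 and 1279 CPM, a CV of 1.39%. The GATA1 cofactor Zfpm1 followed at 811 CPM ± 44.7, with E2f4 at 824 ± 36.4, Foxo3 at 742 ± 11.9, Nfe2 at 573 ± 15.6, Klf1 at 535 ± 42.9 and Gata1 at 482 ± 23.2. The globin repressor Bcl11a stood at 194 CPM ± 3.64, Sox6 at 422 ± 9.57 and Zbtb7a at 391 ± 23. Cbfa2t3 at 56 CPM ± 0.877 and Stat5a at 49.9 ± 1.13 were the lowest. Per kb of exon Klf1 (350 ± 28 CPM per kb), E2f4 (336 ± 14.9), Tal1 (289 ± 4.02) and E2f2 (281 ± 16.8) were near each other, and Gata1 stood at 198 ± 9.53.

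Factors of earlier progenitors were lower, although 10 of 12 reached 1 CPM in every control. Myb, a regulator of progenitor growth, stood at 118.2, 95.9 and 112.2 CPM. Etv6 (35.4 CPM), Runx1 (31.2), Spi1 (17.1), Gata2 (13.1) and Fli1 (11.1) lay between 10 and 40 CPM in the mean, and Mecom (1.09) and Hoxa9 (0.762) were the lowest. Of the 6 members at a mean of 10 CPM or more, 0 were highest in replicate 2, against 22.7% of all genes at that level, which for so few genes is near the background. Gata2, for example, stood at 14.6, 9.6 and 15.1 CPM in replicates 1, 2 and 3.

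Genes of erythropoietin signalling were present from the receptor to the targets. Epor, the receptor, stood at 389.7, 434.9 and 425.8 CPM and Jak2, its kinase, at 234 CPM ± 10.7. Among downstream genes, the kinase Pim1 stood at 540 CPM ± 46 and the survival gene Bcl2l1 at 445 ± 31.1, while the feedback inhibitors Cish (50.2), Socs3 (35.8) and Socs2 (6.46) were lower. Socs1 had 1 count in replicate 1 and 0 in the others. Erfe, the erythroid hormone that lowers hepcidin, stood at 20.7 CPM ± 1.46. Of the 16 genes found in the table, 14 reached 10 CPM and 7 reached 100 CPM in every control.

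Surface markers used to stage erythroblasts were uneven. Tfrc (3523 CPM ± 198) and Cd24a (3048 ± 182) led. The integrin Itga4 stood at 714 CPM ± 31.2, whereas Kit, the stem cell factor receptor of early progenitors, stood at 96.2 ± 8.58 and Cd44, which declines as erythroblasts mature, at 76.4 ± 5.13. Ptprc, the pan-leukocyte marker CD45, stood at 20.1 CPM ± 3.12. Of 11 such genes at 10 CPM or more, 8 were highest in replicate 1 (against 42.3% of all 8013 genes at that level) and 0 in replicate 2 (against 22.7%).

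All 32 maturation and clearance genes found in the table reached 1 CPM in every control. Xpo7 stood at 2109 CPM ± 81.9, Tent5c at 1818 ± 119, Trim10 at 1417 ± 35.7, and the ubiquitin ligases Rnf123 (1042 ± 38) and Ube2o (1024 ± 74.6), the latter known for clearing ribosomes from reticulocytes. The mitophagy receptor Bnip3l stood at 340 CPM ± 16.5, Trim58, linked to nuclear expulsion, at 105 ± 7.31, and Alox15, a lipoxygenase of reticulocytes, at 2.44 ± 0.766.

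The cells carried the transcripts of active division. All 25 mitosis genes reached 100 CPM in every control, with Mki67 at 7211 CPM ± 326, Top2a at 1462 ± 60.3, the cyclin Ccna2 at 762 ± 16.1 and the lowest, Bub1, at 141 ± 7.26. Of 27 replication genes, 24 reached 100 CPM, led by the ribonucleotide reductase genes Rrm2 (2084 ± 95.7) and Rrm1 (1250 ± 59.5) and the helicase subunit Mcm2 (1020 ± 44.6), with Gins2 lowest at 35.9 ± 3.88. Median CVs of these lists were 4.36% and 3.60%. Mitosis genes were highest in replicate 1 in 15 of 25 cases, against 42.3% of all genes at 10 CPM or more.

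Glycolysis genes were uneven. The red cell pyruvate kinase Pklr stood at 1357 CPM ± 42, Hk1 at 673 ± 7.37, Ldha at 531 ± 12 and Bpgm, which makes the haemoglobin ligand bisphosphoglycerate, at 367 ± 13.8. Against these, Gapdh stood at 6.65 CPM ± 0.0722, Pgam1 at 6.43 ± 1.05 and Pgk1 at 15.2 ± 0.935. The unique share of 100-base windows was 81.8% for Gapdh, 60.3% for Pgam1 and 33% for Pgk1, and 100% for Pklr. Over the list, the 3 genes with 25% to 75% unique windows had a median of 15.2 CPM, the 5 with 75% to 99% a median of 146 CPM and the 9 with more a median of 307 CPM. How read counting treated shared sequence was not tested.

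Paralogue choice was marked. In 54 families of related genes, the same member was highest per kb of exon in all 3 controls in 54 of 54. The adult beta globins entered both as a family and within the beta-type globins. As the controls differed little, a stable leader says little about the size of its lead. For 33 families 1 member is known as the erythroid one, and it led in 30 of them in all 3 controls. In 24 of the 30 the lead over the next member was at least 10-fold in each library, where a member without reads was set to 3 counts per library. Leads of that size were not particular to these families. Among the 21 families without such a member, Actb led Actg1 at least 149-fold and Dnmt1 led Dnmt3b at least 18.9-fold in each library. Leads of at least 10-fold in each library were also found for Ldha, Flvcr1, Rps27l, Rpl39, Cox4i1, Cox6a1 and Cox7a2. The rest of the 21 had leads below 10-fold, such as Hmox2 over Hmox1 (1.35-fold). Within single genes, 87 of the 8013 at a mean of 10 CPM or more (1.09%) ranged 1.5-fold or more between the controls. That is a spread within a gene, not a lead between genes.

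**Figure D3:**
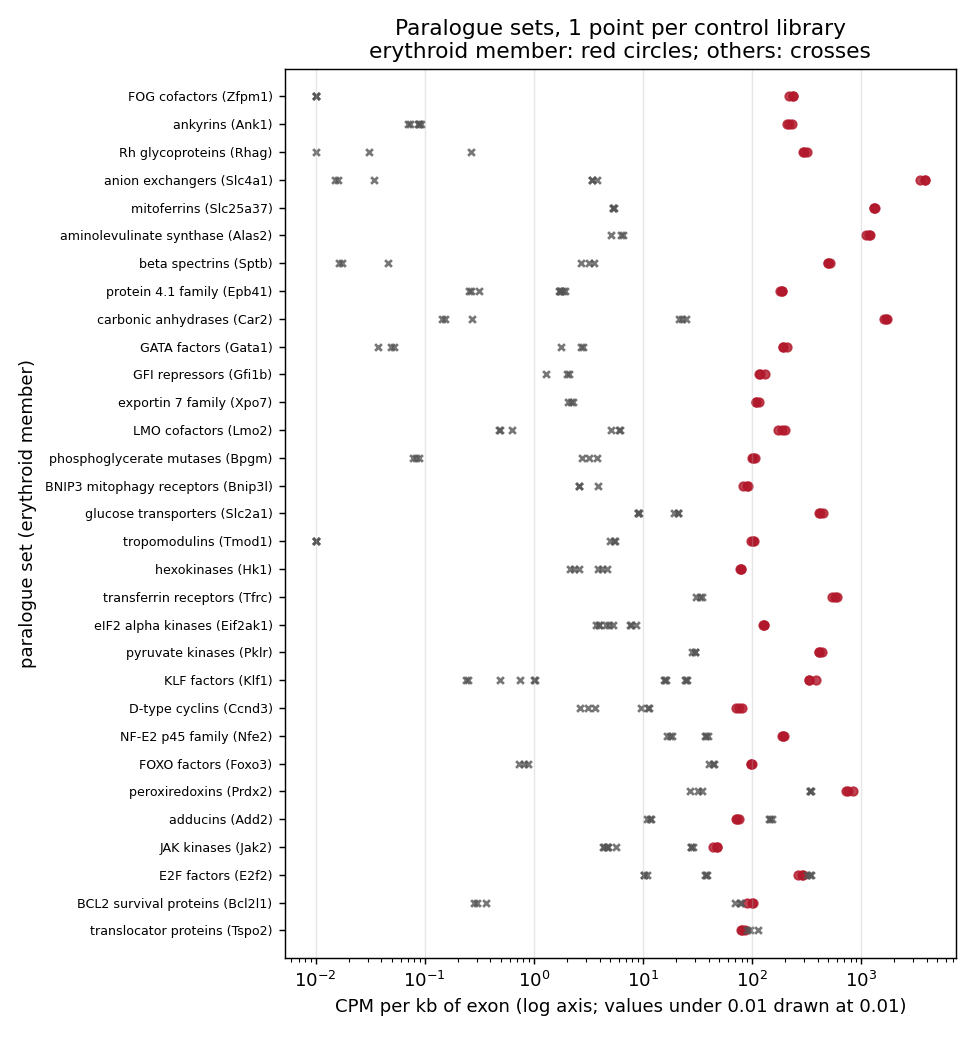
CPM per kb of exon (log axis) of the members of 31 of the 33 paralogue families in each control library, with the erythroid member as red circles and the others as grey crosses, sorted by the lead of the erythroid member. Red circles lie right of every cross except for the adducins, the E2F factors and the translocator proteins, and lie close to the next member for the BCL2 survival proteins. Values under 0.01 are drawn at 0.01.

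Among structural, transport and heme synthesis families, the lead of the erythroid member differed widely in size. Ank1 exceeded Ank3 2466-fold per kb (2378 to 2586 over the 3 libraries) and Slc4a1 exceeded Slc4a2 1052-fold (1009 to 1138). The mitoferrin Slc25a37 exceeded its relative Slc25a28 249-fold, Alas2 exceeded the housekeeping synthase Alas1 196-fold (176 to 235) and Sptb exceeded Sptbn1 160-fold. Alas1 itself stood at 38.9, 31.3 and 40.3 CPM. Car2 exceeded Car1 73.3-fold and Tfrc exceeded Tfr2 17.3-fold. In each of these families the lowest control of the leader lay above the highest control of the next member.

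The lead also varied among regulators. Gata1 exceeded Gata2 81.4-fold per kb (68.5 to 117), Gfi1b exceeded Gfi1 67.7-fold, Lmo2 exceeded Lmo4 32.6-fold, Klf1 exceeded Klf3 14.1-fold and Nfe2 exceeded Nfe2l2 5.04-fold. Zfpm2 had 0 counts in all 3 controls, so Zfpm1 was at least 10263-fold higher with Zfpm2 set to 3 counts per library. Xpo7 exceeded Ranbp17 51-fold and Bnip3l exceeded Bnip3 29.1-fold. Small leads were found for Jak2 over Jak1 (1.66-fold), Bcl2l1 over Mcl1 (1.29-fold, 1.14 to 1.43), Prdx2 over Prdx3 (2.26-fold) and Foxo3 over Foxo4 (2.27-fold).

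In the energy families with a named erythroid member, that member led. Pklr exceeded the muscle-type Pkm 14.4-fold per kb, Hk1 exceeded Hk2 18.5-fold and Slc2a1 exceeded Slc2a4 20.9-fold. Bpgm exceeded Pgam1 31.5-fold, and Pgam1 had 60.3% unique windows. Ldha exceeded Ldhb 212-fold, in a family without a named erythroid member.

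In 3 families another member led. Add1 stood 2.01 times above Add2 per kb (1.92 to 2.09), E2f4 1.19 times above E2f2 (1.16 to 1.22), and Tspo 1.21 times above the erythroid Tspo2 (1.12 to 1.32). For E2f2 and Tspo2 the order turned without length scaling, where 32 of 33 families were led by the erythroid member. Tspo2 stood at 256.9, 278.7 and 262.3 CPM over 3225 bases of exon and Tspo at 94, 120.1 and 101 CPM over 1051 bases.

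Families without a named erythroid member also leaned to 1 gene. Actb exceeded Actg1 174-fold, Rps27l exceeded Rps27 84.7-fold, Dnmt1 exceeded Dnmt3b 20.7-fold, Tet3 exceeded Tet2 6.68-fold, Fth1 exceeded Ftl1 2.82-fold, Stat5b exceeded Stat5a 3.01-fold, Csnk2a1 exceeded Csnk2a2 2.34-fold and Lmnb1 exceeded Lmna 2.28-fold per kb. Unique windows made 49% of Actg1, 39.6% of Ftl1 and 50.4% of Csnk2a1. Rps27 had 78.7% unique windows and stood at 25, 18 and 19 counts, or 1.37 CPM per kb. The related gene Rps27rt, outside this family and named here after its values were seen, stood at 60.3 CPM per kb ± 13.4. How reads were divided between Rps27 and Rps27rt was not tested, so the level of Rps27 is uncertain.

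Transcripts of other cell types were present at low levels. The 10 marker lists of other cell types held 135 genes, of which 90 (66.7%) reached 1 CPM in every control. This compares with 29.8% of all genes and with 10422 of the 21303 protein coding genes. Only Mpo and Afp reached 100 CPM in every control. The median of the 135 genes was 3.01 CPM and together they held 0.199%, 0.158% and 0.193% of the counts in replicates 1, 2 and 3. In sorted bulk samples a few cells of another type, free RNA and low expression in the erythroid cells themselves cannot be told apart.

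Granulocyte genes made the largest of these sums, 756, 552 and 829 CPM in replicates 1, 2 and 3. Mpo, the peroxidase of granulocyte precursors, gave most of it with 494.9, 371 and 546.9 CPM. S100a9 stood at 41 CPM ± 8.35, S100a8 at 36.7 ± 9.44, Prtn3 at 31.4 ± 6.53 and Elane at 23.7 ± 5.28, and the mature neutrophil marker Ly6g at 0.208 ± 0.0131. Replicate 2 was the lowest library, and 0 of the 10 genes at a mean of 10 CPM or more were highest there, against 22.7% of all genes.

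Hepatocyte genes summed to 412, 308 and 268 CPM. Afp, the fetal serum protein alpha-fetoprotein, stood at 173.3, 128.8 and 112.7 CPM and Alb, albumin, at 147.6, 107.1 and 87.7 CPM, both highest in replicate 1. Apoe (19.1 CPM) and Apob (14.7) followed, Ttr stood at 2.23 CPM ± 0.472, and Tat had 0 counts in all 3 libraries. Hepatoblast and biliary genes summed to 13.7 CPM ± 2.47, mostly Dlk1 (9.24), with Krt19 at 0 counts.

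Macrophage genes summed to 240, 226 and 266 CPM, most of it from the myeloid lysozyme Lyz2 (97 CPM ± 14.6) and the receptor Csf1r (48.5 ± 4.6). Island macrophage markers were low but even, with Adgre1 (F4/80) at 10.7, 10.9 and 10.8 CPM, Vcam1 at 7.57 CPM ± 0.588 and the complement gene C1qb at 7.78 ± 0.882. Cd163 had 1 count in all. Megakaryocyte genes summed to 164 CPM ± 10.2, with Vwf at 41 ± 0.996, Itga2b at 30.8 ± 2.4, Pf4 at 9.81 ± 0.657 and Gp6 at 0.185 ± 0.0802.

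Endothelial genes summed to 114, 121 and 141 CPM, with Eng at 32.8 CPM ± 3.31, Stab2 at 17.2 ± 1.99 and Emcn at 0.593 ± 0.225. Stem and progenitor markers summed to 161 CPM ± 21, of which Kit made 96.2 and Cd34 36.7, while Procr stood at 0.0448. Mast cell and basophil genes summed to 55.5 CPM ± 11.9, led by Hdc (20.5 ± 3.93), with Mcpt4, Fcer1a, Cma1 and Tpsab1 at 0 counts. Lymphoid genes summed to 14 CPM ± 1.99, led by Rag1 (2.8), and Cd3e and Klrb1c had 0 counts. Mesenchymal genes summed to 13.7 CPM ± 2.58, led by Col3a1 (3.56) with Lrat lowest at 0.116. A count of 0 in a library allows up to 3 counts, or 0.195 to 0.222 CPM at these depths, for counting error only.

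Most counts lay in protein coding genes, which held 96.9% ± 0.133 of the counts, and processed pseudogenes held 1.89% ± 0.0863. Cytosolic ribosomal protein genes held 1.85% ± 0.115, with 80 of 83 at 1 CPM or more and a median of 88.7 CPM among those. The 31 ribosomal protein genes with 25% to 75% unique windows had a median of 27 CPM, the 42 with 75% to 99% a median of 112 CPM and the 9 with more a median of 116 CPM. Among 351 named pseudogenes set beside their parent gene, 23 exceeded it in all 3 controls. Tpt1-ps3, of whose windows 0% were unique, stood at 570 CPM ± 87.6 and Tpt1 at 27.4 ± 1.66, and Rps16-ps2, also with 0%, stood at 346 ± 50.1 and Rps16 at 14.7 ± 1.07. For such pairs the reads cannot be given to 1 gene, so the levels of either member are uncertain.

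Short transcripts held a small share of the counts and mitochondrial genes held none. All 37 mitochondrial genes were listed at 0, and the sources used here do not give whether they were left out before deposit. Histone genes held 0.128% of the counts, with 15 of 74 at 0 and 26 at 1 CPM or more. Messages of replication-dependent histones lack a poly(A) tail, and the libraries were made from poly(A) RNA. Among protein coding genes, those with transcripts up to 1000 bases (381 at 1 CPM or more) held 6.20% of the counts, and 1.60% when the globins were left out. Genes of 4000 to 8000 bases (3505 at 1 CPM or more) held 35.4%. Per kb of exon the order turned. Among genes at 1 CPM or more, the median was 16.2 CPM per kb up to 1000 bases and 5.14 at 4000 to 8000 bases. The predicted long non-coding gene Gm42418, named here after its values were seen, stood at 815.5, 1141.4 and 827.1 CPM in replicates 1, 2 and 3. Xist (849 CPM) and Malat1 (432) were the most abundant genes with a long non-coding annotation, other than predicted genes and RIKEN clones. Cct6a (302), Redrum (207), a transcript known from erythroid cells, and Gas5 (189) followed. Cct6a is listed only by its annotation as a processed transcript, which does not show that the gene is non-coding.

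The 3 controls differed little. The common biological CV, the spread beyond counting error estimated by edgeR over 12355 genes, was 5.78%. Among the 8013 genes at a mean of 10 CPM or more, the median CV was 5.15%, where counting error alone gives 3.75%, and the median ratio of highest to lowest control was 1.10. The median CV was 11.9% for genes of 1 to 10 CPM, 6.56% for 10 to 30 CPM and 4.16% for 100 to 300 CPM, and it remained at 4.22% above 1000 CPM, where counting error gives 0.669%. The median CV lay below that of counting error (13.9%) in the lowest range and above it from 10 CPM upward.

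**Figure D4:**
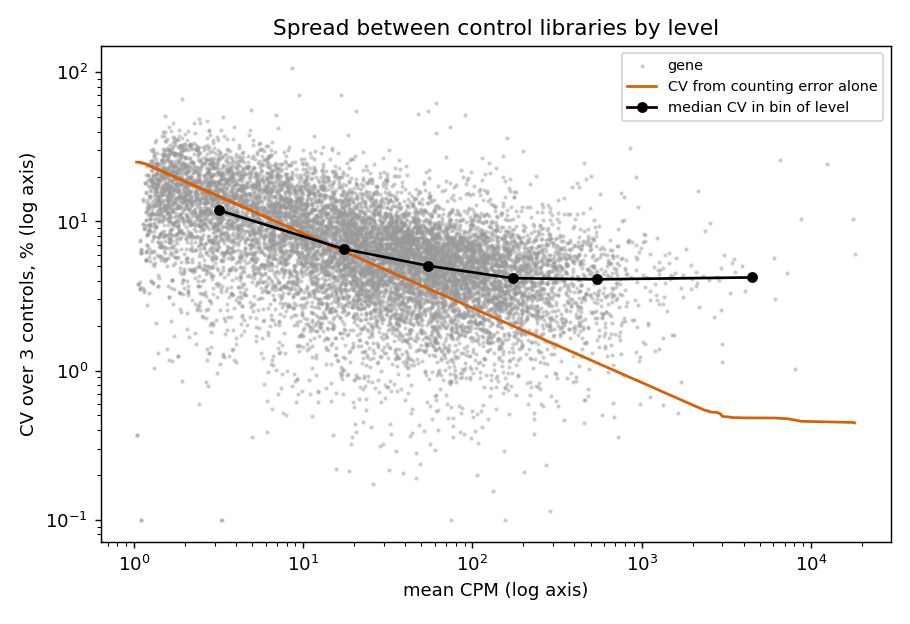
CV over the 3 control libraries (%, log axis) against mean CPM (log axis), 1 point per gene, with the median CV per range of level in black and the CV from counting error alone in orange. A CV under 0.1% is drawn at 0.1%. The median falls to 4.16% at 100 to 300 CPM and stays near there, while the orange line goes on falling; at low levels the black line lies under the orange one, as the median of a CV from 3 values lies below the true CV.

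Few genes varied strongly. A range of 2-fold or more was found for 11 of the 8013 genes (0.137%), and for 0 of the 99 erythroid list genes at that level. Of the 11, 9 were annotated as processed pseudogenes: Gm2423, Gm8430, Pgam1-ps2, Rpl38-ps2, H3f3c, Gm12350, Rps13-ps2, Gm7536 and Gm13331. Of these pseudogenes, Gm2423 had the widest range, with 25.8, 21.4 and 3.32 CPM. Zbed5 had 16, 694 and 14 counts, so nearly all of its reads came from replicate 2. The next largest ranges, from 1.92 down to 1.84, belonged to Pnp2, Xist, Gm12504, Ngp, a granule protein of neutrophils, and Rps7.

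The remaining 2-fold gene was Y-linked. Eif2s3y had 0, 0 and 454 counts in replicates 1, 2 and 3, and the Y-linked genes Ddx3y (2, 1 and 367 counts), Uty (0, 0 and 174) and Kdm5d (0, 0 and 147) had the same pattern. Xist, the non-coding RNA of X inactivation, stood at 1038, 964 and 546 CPM. Replicate 3 thus held both Y-linked reads and Xist reads, while replicates 1 and 2 held nearly no Y-linked reads. Whether replicate 3 came from more than 1 embryo is not stated in the labels and was not tested.

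Small shifts between libraries ran with transcript length. Against the mean of the other 2, the 100 genes with a longest transcript up to 500 bases had a median log2 difference of 0.10 in replicate 1, 0.09 in replicate 2 and -0.20 in replicate 3. The 479 genes over 8000 bases had medians of 0.05, -0.09 and 0.04. Replicate 3 was thus low for short transcripts and replicate 2 for long ones. The 8 globin genes at 10 CPM or more, whose transcripts are short, had medians of -0.19, 0.31 and -0.21. The 358 genes of 500 to 1000 bases had medians of 0.03, 0.04 and -0.08. The globin medians were larger in size, and in replicate 1 they had the opposite sign.

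**Figure D5:**
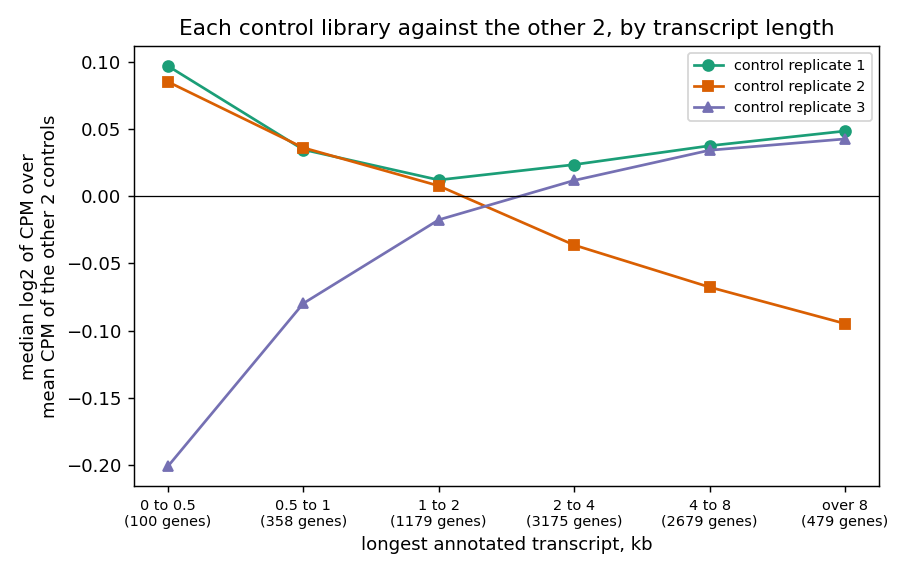
Median log2 ratio of CPM in each control library to the mean of the other 2, by the length of the longest annotated transcript, with the number of genes in each class. Replicate 3 rises from -0.20 for the shortest class and replicate 2 falls to -0.09 for the longest.

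Some gene groups moved together in 1 library. Granulocyte markers had a median log2 difference of -0.53 in replicate 2, and hepatocyte markers one of 0.56 in replicate 1, where 3 of 4 such genes were highest, against 42.3% of all genes. Progenitor transcription factors had a median of -0.29 in replicate 2, and all 4 endothelial genes at this level were highest in replicate 3, against 35.0% of all genes. Erythroid transcription factors differed by at most 0.04 in the median, with 15 of 25 highest in replicate 3, and membrane genes by at most 0.04. Heme synthesis genes had medians of -0.10, 0.06 and 0.01. No test of a difference between these groups was made.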

How the data were processed

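Poly(A) RNA of sorted TER119-positive fetal liver cells was measured in 3 control libraries, grouped by their titles and genotype labels; the 2 KO libraries were not used. Reads were handled with cutadapt, STAR, Bowtie and HTSeq on mm10, per the submitters' processing notes. The sources used here do not give versions, strand use, the handling of multi-mapped reads or the annotation. The authors deposited whole-number counts per gene, not normalised, for 39179 Ensembl genes; 37693 matched GENCODE M21 (GRCm38), and 1486 did not and held 0.365% to 0.376% of the counts. Every column of the table belongs to a labelled sample (0 without one).

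Counts were divided by each library's total over genes (CPM) and, between genes, by the union of exons in kb. Totals were 13543392 to 15366021. Reads carry no molecular identifiers, so depth speaks of counting error only. Unique windows were 100-base windows of the longest transcript found, on the same strand, in no other gene's GENCODE transcripts; they were counted for list members, ribosomal protein genes and the 500 most abundant genes. The common biological CV came from edgeR 4.0.16 in R 4.3.3 (estimateDisp with an intercept, TMM factors of 0.984 to 1.01, filterByExpr), and the steps were tested on simulated data. DESeq2 1.42.0 was an alternative; tables were made with Python 3.11.15, pandas 2.3.3 and numpy 2.4.6. The members, the 24 gene lists, the 54 paralogue families and the part described were chosen with earlier results of these data known, and no list is independent evidence. Named were 5 marker genes, the 30 highest genes by CPM and 15 per kb (predicted genes, RIKEN clones and pseudogenes only counted), the top 3 and the lowest of each list, members of discussed lists and families, the 15 widest ranges, Xist, Y-linked genes and the 5 highest long non-coding genes; pseudogene pairs were named after their values were seen. List symbols absent from the annotation as written (Ahsp and some aliases) have no value. Alternatives were other scalings, filters, length measures and each control left out. No batch is given in the labels. Of the genes this rule names, 5 are not reported here.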

Additional observations from a re-analysis of the deposited data

How the results depend on the processing

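Of 142 values under alternative settings, 124 stayed near the value reported, within 1.5 times for counts of genes or families and within 1 SD for other values (96 of them for whole-library results and 28 for single genes or ratios), 17 moved and 1 reversed. Under TMM or RLE scaling the numbers of genes at 1 CPM or more (11682) and with a 2-fold range (11) did not change, and the erythroid genes at 1 CPM or more numbered 100 under each alternative except a 10 CPM minimum (99). Requiring only 1 count in each control gave 17689 genes. The number of genes with a 2-fold range was 6 to 13 when a control was left out, lowest without replicate 3, and it was 123 at a mean of 1 CPM or more, 5 at 50 CPM or more and 87 for a 1.5-fold range. With totals without globin and ribosomal protein genes, the top 10 genes held 6.85% of counts, 751 genes held 50%, megakaryocyte markers summed to 176 CPM, and Gata1, Alas2 and Slc4a1 stood at 516, 2998 and 19376 CPM, which follows from the smaller totals. The common biological CV was 5.14% to 6.13% when a control was left out, lowest without replicate 2, and the median gene-wise DESeq2 estimate was 0.01%, with 57.2% of 12355 genes at the lower limit of that estimate. The ratio of Hbb-bs to Hbb-bt was 2.27 per longest transcript and 2.79 per unique window. The ratio of Hba-a1 to Hba-a2 was 1.91 in CPM and 1.51 per longest transcript, and it reversed to 0.848 per unique window, where Hba-a2 has the smaller unique share. These ratios and the levels of single genes under other scalings were added after the data were seen. No paired analysis was possible because only control libraries were used and no groups were compared. Depth limits genes near or under 1 CPM, which rest on about 15 counts or fewer, and in these the spread between controls cannot be parted from counting error.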
